A study of Danio rerio with 12 samples.

Results

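The sarcomere is the repeating unit of striated muscle, in which thick filaments of myosin pull on thin filaments of actin. Of the 31172 gene rows measured in whole zebrafish embryos, 87 were taken as genes of the sarcomere and the contractile machinery. They were chosen by gene symbol. Symbols had to begin with a root for myosin heavy or light chains (myh, myl), troponin (tnn), tropomyosin (tpm), titin (ttn) or alpha-actinin (actn). The further roots were acta, mybpc, myom, myoz, neb, ldb3, tcap, tmod, lmod, cav3, eno3, ckm and smyd1. The heart genes myl7 and tnnt2a, the myosin kinases and ligases and the tenascins were left out. The rule reads symbols only, so it also takes in genes of non-muscle cells and smooth muscle. The myosins among them are described apart. The non-muscle alpha-actinin gene actn1 and the smooth muscle actin gene acta2 are counted with the Z-disc genes and the actins.

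The embryos carried an insertion of Gal4 in etv2, which encodes an ETS transcription factor that vessel and early blood formation depends on. The allele, etv2Gt(2A-Gal4)ci32, drives a UAS:GFP reporter wherever etv2 is active. The groups were homozygous embryos at 15 somites, heterozygous embryos at 15 somites, homozygous embryos at 24 hpf (hours post fertilization) and heterozygous embryos at 24 hpf. All came from crosses between heterozygous carriers with the reporter and were told apart by GFP pattern, so the heterozygotes also carry 1 copy of the allele, and no wild-type embryos were compared. Embryos for the 15-somite groups were raised at 24 °C and those for 24 hpf at 28 °C. Each group has 3 libraries, and each library is a pool of 15 to 20 embryos. Homozygous libraries are called hom 1 to hom 3 and heterozygous ones het 1 to het 3. At 15 somites 2 columns share a name, so those homozygous libraries are called hom a and hom b beside hom 2. The labels do not say whether pools came from separate clutches, so p-values measure only the spread between these pools.

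As background, thick filaments are built from myosin heavy and light chains and bound by myosin-binding protein C. Thin filaments hold actin, tropomyosin and the troponin complex, which makes contraction depend on calcium. Titin and nebulin run along the filaments, alpha-actinin joins thin filaments at the Z-disc, and tropomodulin caps their other end. In zebrafish, somites begin to form muscle fibres during the segmentation period, and fast and slow fibres use different members of each family.

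The deposited values are on the log2 scale, relative to each gene's own median over the 6 libraries of its stage, so they hold no absolute level and genes cannot be ranked by level. These tables are not counts, so total depth is unknown, and low values put relative depth at 0.902 to 1.13 within the 15-somite stage and 0.961 to 1.06 within 24 hpf. Each level below is a percentage of the gene's geometric mean over the 3 heterozygous libraries at the same stage. The targeted gene, etv2, stood at 12.9% to 16.3% in homozygous libraries against 96.7% to 106% in heterozygous ones at 15 somites, and at 7.40% to 13.99% against 99.2% to 101% at 24 hpf. All 6 endothelial markers fell at 15 somites and 4 of 6 at 24 hpf. None of 7 skeletal muscle markers, of which 2 are members themselves, passed at either stage. Of the 87 members, 73 had an estimated median level of at least 16 normalized units and were tested at 15 somites, and 80 at 24 hpf.

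At 15 somites, 8 of the 73 tested members differed between homozygous and heterozygous embryos at an adjusted p below 0.05. The other 65 did not pass. The 6 that fell were the light chain genes myl6 and myl9b, the creatine kinase gene ckmt1, the capping gene tmod4, the enolase gene eno3 and the tropomyosin gene tpm4a. The 2 that rose were myh7bb, a sarcomeric myosin heavy chain gene, and ttnb, a titin gene. Of the 8, myl6 and myl9b belong to the non-muscle and smooth muscle myosins. In mammals, ckmt1 is not confined to muscle and tpm4a is chiefly a cytoskeletal form. These mammalian roles may not hold for the zebrafish genes. The 8 make 11% of the tested members, where 4.02% of the 18862 rows tested were called. This share is over all members taken by symbol and not over sarcomere genes alone. The lower calls were 8.22% of members against 3.34% of all rows, and the higher calls 2.74% against 0.679%. At an unadjusted limma p below 0.05 there were 19 members, 26%, where all rows gave 21.1%. Groups did not overlap in 22 of the 73, 12 lower and 10 higher, which is 30.1% where the share over all rows was 28.8%. The median difference, homozygous minus heterozygous, was -0.09 on the log2 scale over members and 0.00388 over all rows, and 47 members lay below 0. This direction rested on het 1, since without it the member median was 0.03 and 34 members lay below 0. The median absolute difference was 0.163 over members and 0.162 over all rows. These RNA levels come from whole embryos, so fewer cells of a type and less RNA per cell cannot be told apart.

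**Figure D1:**
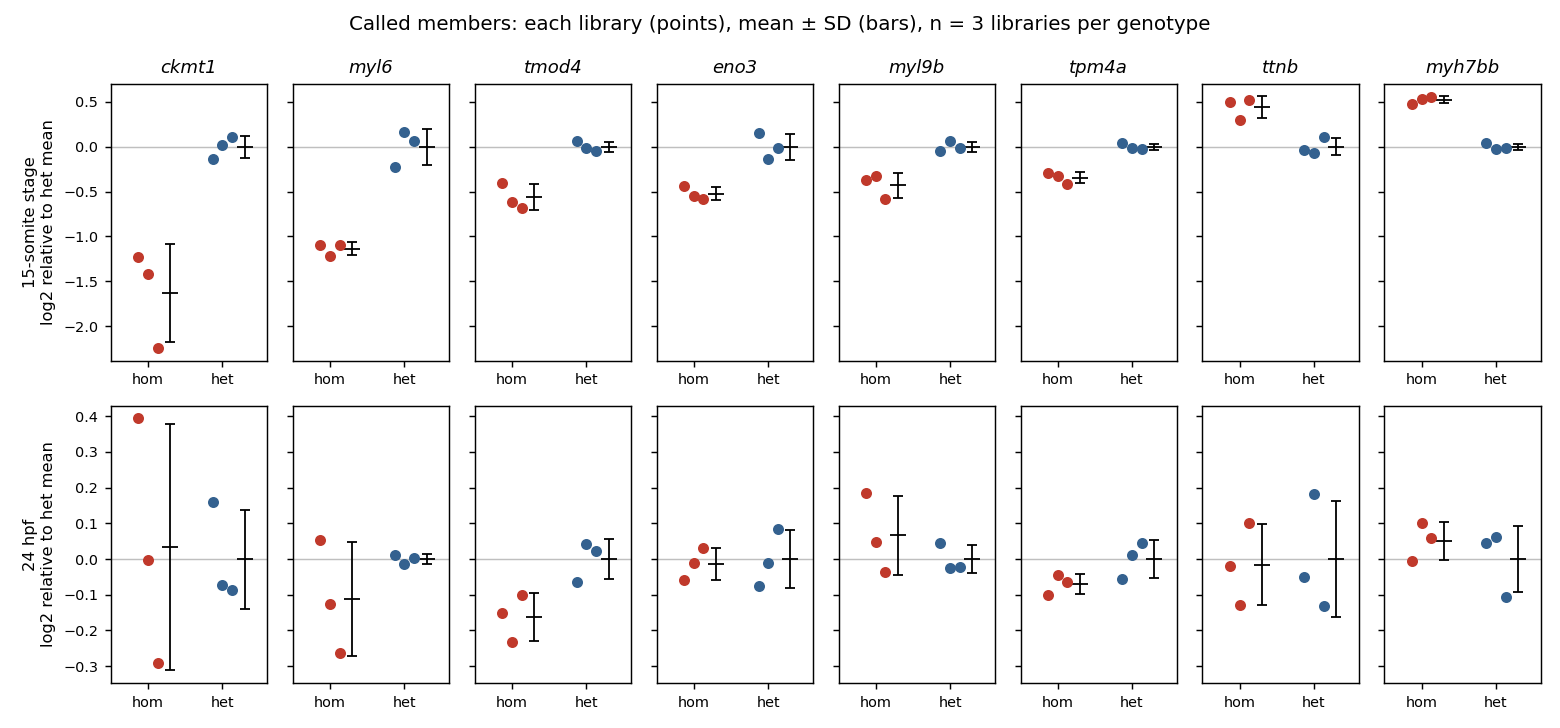
Level of the 8 called genes in each library, as log2 relative to the heterozygous mean of the stage, with 15 somites in the upper row and 24 hpf in the lower row, which has a narrower scale. Points are libraries and bars are the mean and SD of 3; at 15 somites the homozygous points of every gene lie apart from the heterozygous ones, and at 24 hpf they do so for tmod4 alone.

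Among the sarcomeric myosin heavy chains, the motor of the thick filament, only myh7bb (ENSDARG00000035322) passed. Its level was 140% in hom 2, 145% in hom a and 147% in hom b, against 103%, 98.6% and 98.8% in het 1, het 2 and het 3. The homozygous libraries lay close together and well above all heterozygous ones. The rise was 0.52 on the log2 scale (SE 0.06, 1.44-fold, limma adjusted p = 0.0125). It passed without hom 2, hom b or het 1 and not without hom a, het 2 or het 3, with adjusted p between 0.0252 and 0.0664. The other 7 tested heavy chains, among them the fast fibre genes myhz1.1 (-0.20), myhz1.2 (-0.19), myhz1.3 (0.01), myhz2 (-0.11) and myhc4 (0.01), did not pass. These fast genes are near copies of each other, so reads could have been split between them in counting. For myhc4 the heterozygous libraries alone ran from 52.1% in het 3 to 157% in het 1, wider than its homozygous range of 88.1% to 118%. The atrial gene myh6 stood at -0.31 (SE 0.37).

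All 5 tested light chains of sarcomeric myosin lay below 0 and none passed, with differences between -0.25 for mylz3 and mylpfb and -0.06 for myl1. The fast regulatory light chain gene mylpfa stood at 103%, 71.1% and 96.9% in homozygous libraries and at 122%, 87.5% and 93.6% in heterozygous ones, with hom a the lowest and het 1 the highest. The groups overlapped (-0.16, SE 0.18). The same library, het 1, was the highest of the 6 for mylz3 (123%), myl1 (113%), mylpfb (137%) and the slow fibre gene myl10 (111%). Without het 1 the differences were smaller, at -0.10 for mylz3, -0.02 for mylpfa and mylpfb and -0.04 for myl10, and myl1 lay above 0 (0.03). Of the myosin-binding protein C genes, the fast form mybpc2b stood at 0.02 and the cardiac form mybpc3 at -0.36 (SE 0.23), and the other pair was too low to test.

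Titin, the giant elastic protein that links Z-disc and M-band, has a pair of genes here, ttnb and ttna. The gene ttnb (ENSDARG00000000563) stood at 141% in hom 2, 123% in hom a and 143% in hom b, against 97.7%, 94.9% and 108% in het 1, het 2 and het 3. It rose by 0.44 (SE 0.09, 1.36-fold, adjusted p = 0.0470). The gene ttna (ENSDARG00000028213) stood at 132%, 116% and 135% in homozygous libraries, against 94.4%, 96.1% and 110% in heterozygous ones. The groups did not overlap for either gene, but ttna did not pass (0.35, SE 0.09, adjusted p = 0.0997). Whichever library was left out, ttnb did not pass either, with adjusted p of 0.0663 to 0.150 and a difference of 0.40 to 0.51. Nebulin, which runs along the thin filament, had its gene neb at 0.18 (SE 0.09), and the M-band gene myom1a stood at 0.05.

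In the thin filament, the skeletal actin genes differed little. The gene acta1a stood at 96.7%, 95.8% and 99.98% in homozygous libraries and at 115%, 91.8% and 94.5% in heterozygous ones, and acta1b at 103%, 94.98% and 101% against 114%, 95.1% and 91.9%. Both groups overlapped in each case, with differences of -0.04 (95% interval -0.27 to 0.19) and -0.01 (95% interval -0.24 to 0.22). The smooth muscle actin gene acta2 stood at -0.32 (SE 0.29), also with overlapping groups. Among 6 tropomyosins, tpm4a (ENSDARG00000023963) stood at 81.5%, 79.9% and 75.2% in homozygous libraries against 103%, 98.7% and 98.6% in heterozygous ones. It fell by 0.34 (log2, SE 0.06; 1.27-fold lower; adjusted p = 0.0361). It did not pass whichever library was left out, with adjusted p of 0.0702 to 0.123. The second gene of that name, tpm4b, lay the other way at 0.07 (SE 0.07), with overlapping groups, and did not pass. At 24 hpf tpm4b stood at 0.29 (SE 0.10, limma adjusted p = 0.616) and tpm4a at -0.07, and neither passed. The tropomyosin genes tpma (-0.09), tpm1 (0.06), tpm2 (-0.09) and tpm3 (-0.15) did not pass at 15 somites. Of these only tpm3 had separate groups, at 92.5%, 89.7% and 88.4% in homozygous libraries against 103%, 99.9% and 96.9% in heterozygous ones.

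None of the 13 tested troponin genes passed. The fast troponin I gene tnni2a.2 (ENSDARG00000005841) came nearest, at 124%, 126% and 116% in homozygous libraries against 93.9%, 106% and 101% in heterozygous ones. Its groups did not overlap (0.28, SE 0.07, adjusted p = 0.0861). In a limma fit of all 12 libraries tnni2a.2 passed (adjusted p = 0.0179), where 9.53% of all rows were called. The cardiac troponin C gene tnnc1a (ENSDARG00000011400) stood at 80.3%, 77.1% and 64.4%, against 87.5%, 124% and 92.1% in heterozygous libraries (-0.44, SE 0.21). Its groups did not overlap, and it did not pass (adjusted p = 0.292). All 7 tested heart markers, myh6 among them, also lay below 0 at this stage and none passed (median -0.41), and their part in the value of tnnc1a was not tested. The fast genes tnnc2 (-0.12) and tnnt3a (-0.11), the slow genes tnnc1b (-0.02) and tnnt1 (-0.33), and the troponin I gene tnni1b (-0.26) had overlapping groups. For the fast gene tnnt3b the groups did not overlap, at 104% to 112% in homozygous libraries and 98.9% to 102% in heterozygous ones (0.10, SE 0.17).

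Tropomodulins cap the pointed ends of thin filaments, and the skeletal muscle form tmod4 fell. The gene tmod4 (ENSDARG00000020890) stood at 75.7% in hom 2, 65.5% in hom a and 62.3% in hom b, against 104%, 98.8% and 96.9% in het 1, het 2 and het 3. The 3 homozygous libraries were all below the lowest heterozygous one. It fell by 0.57 (log2, SE 0.09; 1.48-fold lower; adjusted p = 0.0245) and passed without hom 2 but not without any other library (adjusted p 0.0284 to 0.0942). In the RefSeq annotation of assembly GRCz12tu, tmod4 lies on the same chromosome as etv2, as does myh14, which stood at 0.02. These are 2 of the 85 members that could be placed, which include 7 of the 8 called members. Whether this position bears on the fall of tmod4 was not tested. The gene tmod1 stood at 0.06, tmod2 at -0.06 and lmod1, a leiomodin gene, at -0.10.

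At the Z-disc no gene passed and directions differed within families. The sarcomeric alpha-actinin gene actn2 (ENSDARG00000071090) stood at 116%, 122% and 129% in homozygous libraries, against 105%, 85.5% and 111% in heterozygous ones. Its groups did not overlap (0.29, SE 0.11, adjusted p = 0.202). The fast fibre form actn3b also had separate groups at 0.12 (SE 0.06), while actn3a stood at -0.15, and the form of non-muscle cells, actn1, at -0.24. The gene ldb3a, whose product binds alpha-actinin, had separate groups at 0.15 (SE 0.07), and ldb3b stood at -0.02. The calcineurin-binding myozenin genes ranged from -0.86 for myoz1b to -0.04 for myoz2b, and for myoz1b the homozygous libraries alone ran from 35.3% to 85.6%.

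**Figure D2:**
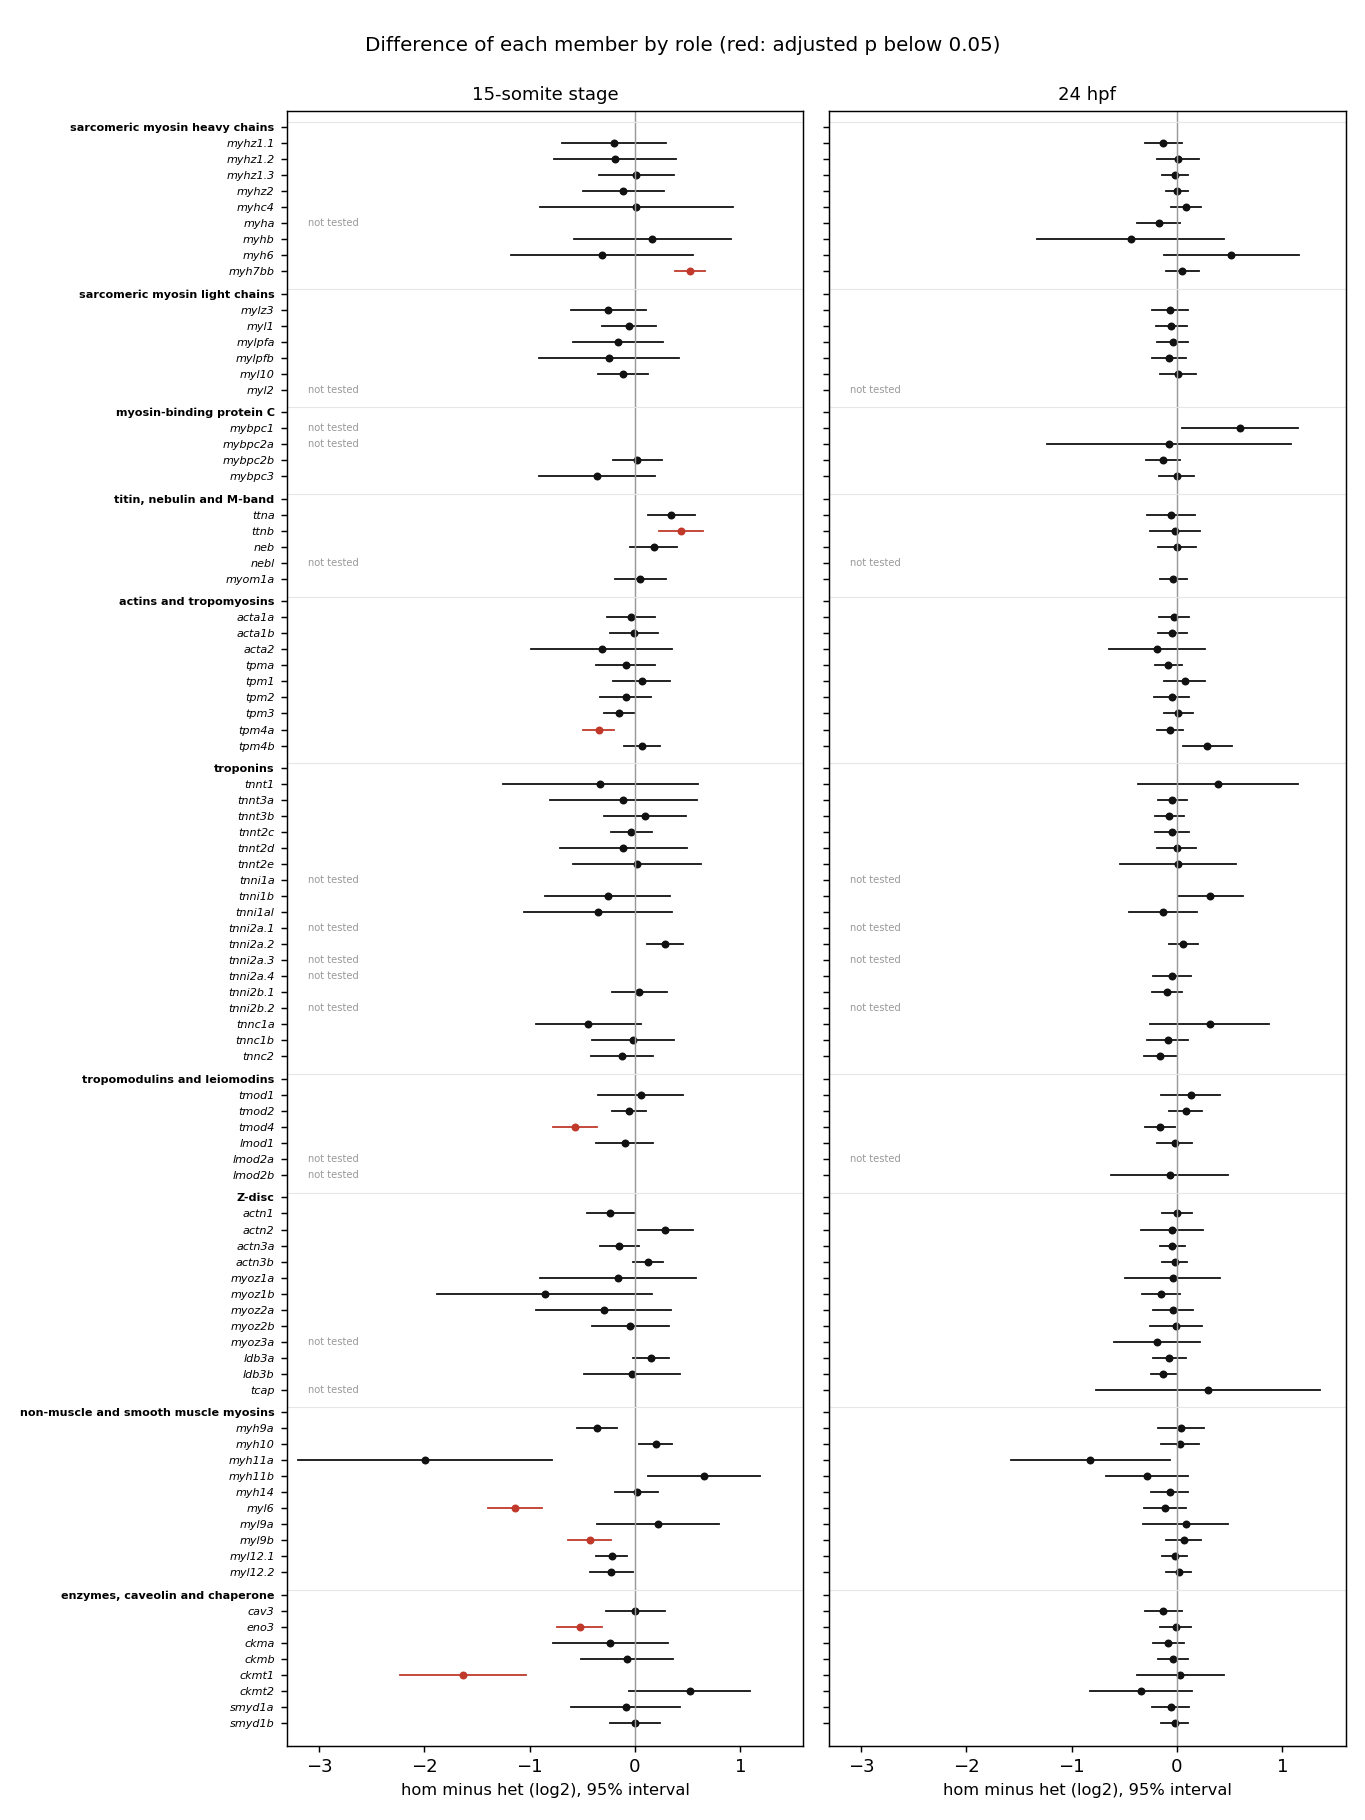
Log2 difference (homozygous minus heterozygous) and its 95% interval from limma for each of the 87 genes, at 15 somites on the left and 24 hpf on the right. Rows are grouped by role, red marks an adjusted p below 0.05, and genes under 16 normalized units are marked as not tested; the intervals at 24 hpf are mostly narrower and lie around 0.

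The non-muscle and smooth muscle myosins held the member with the lowest adjusted p. The gene myl6 (ENSDARG00000008494) encodes the essential light chain of non-muscle and smooth muscle myosin. It stood at 46.8% in hom 2, 43.0% in hom a and 46.8% in hom b, against 85.7%, 112% and 104% in het 1, het 2 and het 3. It fell by 1.14 (log2, SE 0.11; 2.20-fold lower; adjusted p = 0.00820) and passed without each of the 6 libraries in turn (adjusted p 0.00937 to 0.0429). The gene myl9b (ENSDARG00000008030), a regulatory light chain, stood at 77.1%, 79.7% and 66.6% in homozygous libraries against 96.9%, 104% and 98.8% in heterozygous ones. It fell by 0.43 on the log2 scale (SE 0.09, adjusted p = 0.0457), and did not pass whichever library was left out (adjusted p 0.0815 to 0.137).

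Further genes of this group had separate groups without passing. The smooth muscle heavy chain gene myh11a (ENSDARG00000009782) had the widest difference of all members. It stood at 32.1%, 41.8% and 11.8% in homozygous libraries against 61.6%, 136% and 119% in heterozygous ones (-1.99, SE 0.51, adjusted p = 0.0823). In the limma fit of all 12 libraries myh11a passed (adjusted p = 0.0237), where 9.53% of all rows were called against 4.02% in the main fit. The second gene of that name, myh11b, lay the other way, at 117%, 215% and 155% against 102%, 115% and 85.4% (0.66, SE 0.22, adjusted p = 0.163). The non-muscle heavy chain genes differed in direction as well. The gene myh9a stood at 76.6%, 81.2% and 75.8% in homozygous libraries against 90.7%, 105% and 105% in heterozygous ones (-0.36, adjusted p = 0.0612), and myh10 at 0.20 (adjusted p = 0.155). Without het 1, myh9a passed (-0.43, adjusted p = 0.0398). The regulatory light chain genes myl12.1 and myl12.2 both stood at -0.22 with separate groups. In all, 6 of the 10 genes had all homozygous libraries below all heterozygous ones and 2 had them all above, where 28.8% of all rows had separate groups in either direction.

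Markers of other tissues moved at the same stage. Of 6 epidermal markers 5 fell, and all 6 lay below 0 (median -0.46), with cyt1 at -0.59 and icn at -0.69. At 24 hpf 0 of the 6 passed in limma (median 0.10). Of 6 tested smooth muscle and mural markers 5 lay below 0, but 4 of those listed are members themselves, and cnn1b (-0.90) and pdgfrb (-0.52) did not pass. Red cell markers went both ways, with gata1a, an erythroid transcription factor gene, higher (0.41) and the carbonic anhydrase gene cahz lower (-0.73) among 7. All 4 neural markers lay above 0 (median 0.08) and 0 passed in limma, with elavl3 at 0.45 (adjusted p = 0.0740). All 7 tested heart markers lay below 0 (median -0.41) and none passed. The part of these tissues, the heart included, in the values of myl6, myl9b, myh9a and tpm4a was not tested.

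Among enzymes, ckmt1 and eno3 fell while the cytosolic muscle creatine kinases did not pass. The gene ckmt1 (ENSDARG00000016598) encodes a mitochondrial creatine kinase that in mammals is widespread and not confined to muscle. It stood at 42.8% in hom 2, 37.3% in hom a and 21.1% in hom b, against 91.1%, 102% and 108% in het 1, het 2 and het 3. It fell by 1.63 (log2, SE 0.25; 3.10-fold lower; adjusted p = 0.0245), and passed without hom 2 or hom b only (adjusted p 0.0102 to 0.0949). The gene eno3 (ENSDARG00000039007), the muscle enolase of glycolysis, stood at 73.8%, 68.2% and 67.0% in homozygous libraries against 111%, 91.2% and 98.8% in heterozygous ones. It fell by 0.52 (log2, SE 0.09; 1.44-fold lower; adjusted p = 0.0313) but did not pass whichever library was left out (0.0523 to 0.107). The muscle creatine kinase gene ckma stood at 89.0%, 75.8% and 91.2% against 146%, 77.6% and 88.4%, so that 1 heterozygous library, het 1, set its difference of -0.23 (SE 0.23). The genes ckmb (-0.08), cav3 of muscle caveolae (0.00), smyd1a (-0.09) and smyd1b, a methyltransferase gene needed for thick filament assembly (0.00), did not pass. The mitochondrial gene ckmt2 stood at 0.52 (SE 0.25, adjusted p = 0.283).

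Members as a set were higher, by their median, in het 1 than in the other 5 libraries of 15 somites. Leaving out the non-muscle and smooth muscle myosins, 63 genes were tested, which still include actn1, acta2, tpm4a and ckmt1. Their median, relative to each gene's own median, was 0.03 in hom 2, -0.09 in hom a and 0.01 in hom b, against 0.20 in het 1, -0.04 in het 2 and -0.03 in het 3. Over all rows these medians lay within 0.00176 of 0. Het 1 was the highest library for 36 of the 73 tested members, 49.3%, where it was highest for 23.7% of all rows. Without het 1, 39 members lay above 0 and 34 below, the median was 0.03, and 3 passed (myl6, myh9a and myh7bb). The sign turned without het 1 for 17 of the 73, of which 15 then lay above 0. Among them were myl1, tpm2, tpma, myhz1.1 (0.01), myhz1.2 (0.03), acta1a (0.07), acta1b (0.09), ckma (0.04), ckmb (0.13), tnnc1b (0.18) and tnnt3a (0.22), and none of the 17 passed in either case. The falls of myl6 (-1.25), ckmt1 (-1.70) and tpm4a (-0.32) were of like size without it. The number of calls was 3 without het 1, 1 without het 2, 1 without het 3, 4 without hom 2, 1 without hom a and 3 without hom b. Calls over all rows were fewer in these fits as well, at 2.21%, 0.334%, 0.504%, 2.11%, 0.88% and 1.59% of rows in the same order, against 4.02% with all 6 libraries.

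**Figure D3:**
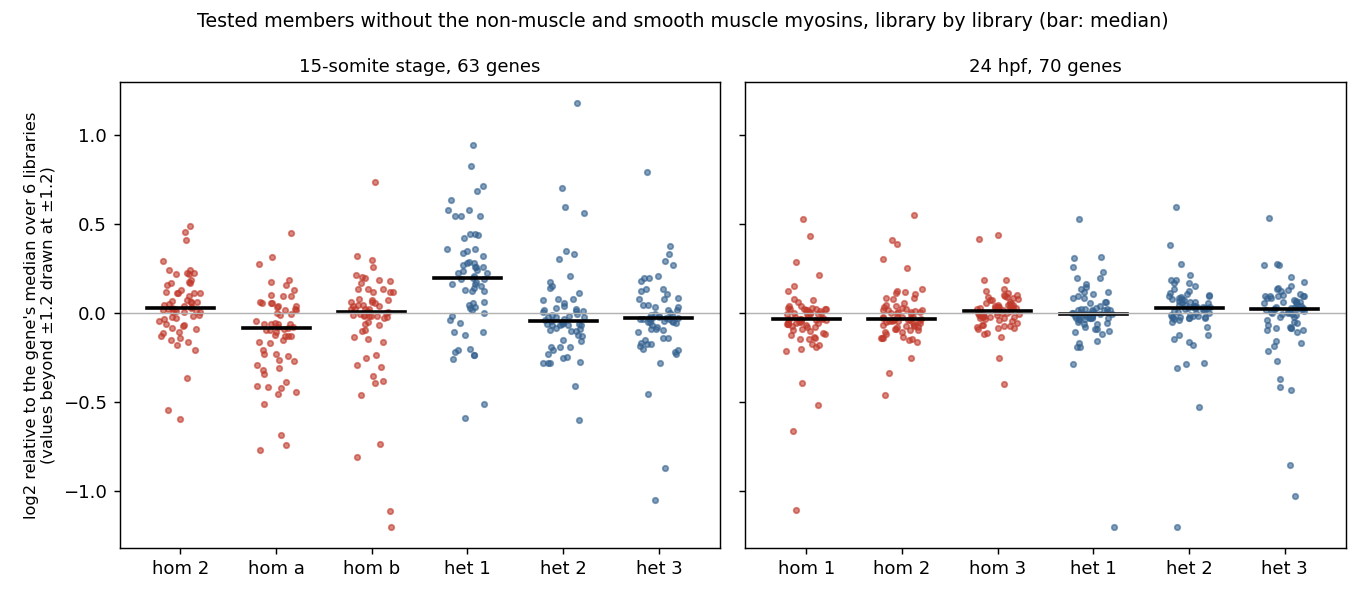
Each point is 1 tested gene, without the non-muscle and smooth muscle myosins, in 1 library, as log2 relative to that gene's median over the 6 libraries of its stage; bars are medians. At 15 somites het 1 stands above the rest with a median of 0.20, and at 24 hpf the 6 medians lie between -0.03 and 0.03.

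At 24 hpf, none of the 80 tested genes passed in limma, where 0.279% of the 19382 rows tested were called (0.248% lower and 0.031% higher). At an unadjusted p below 0.05 there were 7 members, 8.75%, where all rows gave 7.13%, and no other fit of this stage called a member. The median difference was -0.04 over members and 0.000740 over all rows, and 54 members lay below 0. The highest library was het 3 for 31.2% of members, against 16% of all rows, and het 2 for 22.5% against 16.1%. For hom 1, hom 2, hom 3 and het 1 the shares were 10% to 12.5% of members against 15.4% to 19.1% of all rows. Groups did not overlap for 4 members, all lower, which is 5% where all rows gave 12.8%. For 64 of the 80, or 80%, the 95% interval lay within 0.5 of 0 on the log2 scale, against 61.2% of all rows. At 15 somites that was the case for 36 of 73, or 49.3%, against 49.1% of all rows. Members and all rows differ in level, since at 24 hpf 66 of the 80 members were in the highest level class, against 62.1% of all rows. The median SE at 24 hpf was 0.0724 over members and 0.108 over all rows.

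None of the main fibre genes passed at 24 hpf, and several were close to level. Among the fast heavy chains, myha stood at -0.17 (SE 0.09) and myhz1.1 at -0.13 (SE 0.07). The genes myhz1.2 (0.01), myhz1.3 (-0.02) and myhc4 (0.08) lay nearer to 0, and the groups of all these overlapped. The fast heavy chain gene myhz2 stood at 99.4%, 101% and 99.5% in hom 1, hom 2 and hom 3, against 100%, 99.2% and 101% in het 1, het 2 and het 3 (95% interval -0.11 to 0.11). For ttnb the values were 98.7%, 91.5% and 107% in homozygous libraries and 96.6%, 113% and 91.3% in heterozygous ones, with overlap (-0.02, SE 0.10), and ttna stood at -0.05. The actins acta1a (-0.03) and acta1b (-0.04), nebulin (0.00), smyd1b (-0.02), mylpfa (-0.04) and the creatine kinases ckma (-0.08) and ckmb (-0.04) lay inside their spread. The 4 genes with separate groups were tmod4, tnnc2, ldb3b and myh11b. The gene tmod4 stood at 90.1%, 85.1% and 93.2% in homozygous libraries against 95.7%, 103% and 101% in heterozygous ones (-0.16, SE 0.06, adjusted p = 0.649). The fast troponin C gene tnnc2 stood at 87.2%, 90.6% and 91.1% against 93.1%, 101% and 106% (-0.16, SE 0.06, adjusted p = 0.687). The Z-disc gene ldb3b stood at -0.13 and myh11b at -0.29.

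The widest differences at 24 hpf belonged to genes with wide spread. The gene myh11a stood at 51.1%, 38.5% and 91.9% in homozygous libraries against 107%, 87.0% and 108% in heterozygous ones, and overlapped (-0.82, SE 0.32, adjusted p = 0.667). The slow fibre gene mybpc1 stood at 119%, 179% and 163% against 125%, 84.7% and 94.3% (0.60, SE 0.23). The atrial gene myh6 stood at 0.52 (SE 0.27). Next in size were the heavy chain gene myhb at -0.44 (SE 0.38), tnnt1 at 0.39 (SE 0.32), ckmt2 at -0.34 (SE 0.21), tnni1b at 0.32 (SE 0.13) and tnnc1a at 0.31 (SE 0.24). At this stage 7 of 8 heart markers, myh6 included, lay above 0 and none passed (median 0.33). The part of heart tissue in the values of myh6, tnnc1a and tnni1b was not tested. For tcap, the gene of the Z-disc protein telethonin, a single library, het 2 at 46.8%, stood apart from the other 5, which ran from 99.2% to 151%.

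The genotype difference was then compared between stages in 1 model, as the 24 hpf difference minus the 15-somite difference. Each stage has its own libraries and table, so only differences within a table were set against each other. Of 73 members tested at both stages 5 passed, 6.85%, where 3.33% of the 18107 rows did. By direction these were 4 members above 0, where 2.47% of all rows were called, and 1 below 0, where 0.862% were. The difference was less negative at 24 hpf for myl6 (1.02, SE 0.14, adjusted p = 0.00610), ckmt1 (1.66, SE 0.32, adjusted p = 0.0227), eno3 (0.51, SE 0.11, adjusted p = 0.0289) and myl9b (0.50, SE 0.11, adjusted p = 0.0321). It was less positive for myh7bb (-0.47, SE 0.08, adjusted p = 0.0161). At 24 hpf these genes stood at -0.11, 0.03, -0.01, 0.07 and 0.05, in that order. The stage differences of myl6 and myh7bb passed without each of the 12 libraries in turn. That of ckmt1 failed without 24 hpf hom 2, het 2 or het 3, and those of eno3 and myl9b failed without 8 of the 12 libraries each (adjusted p 0.0270 to 0.0723 and 0.0313 to 0.0815). For tmod4 (0.40, adjusted p = 0.0578), tpm4a (0.27, adjusted p = 0.0669) and ttnb (-0.45, adjusted p = 0.0895) a difference between stages was not shown. That of tmod4 passed with a stricter level filter (adjusted p = 0.0403), with quantile normalization (0.0434) and without 15-somite hom 2 (0.0193). That of tpm4a passed with the stricter filter (0.0474). In the same order these fits called 6.9%, 4.31% and 3.3% of all rows, against 3.33% in the main fit. The gene myh11b had separate groups on opposite sides (-0.29 at 24 hpf and 0.66 at 15 somites), and its stage difference did not pass (-0.94, SE 0.30, adjusted p = 0.115). Without 15-somite hom 2 that stage difference passed in limma (-1.16, adjusted p = 0.0448).

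**Figure D4:**
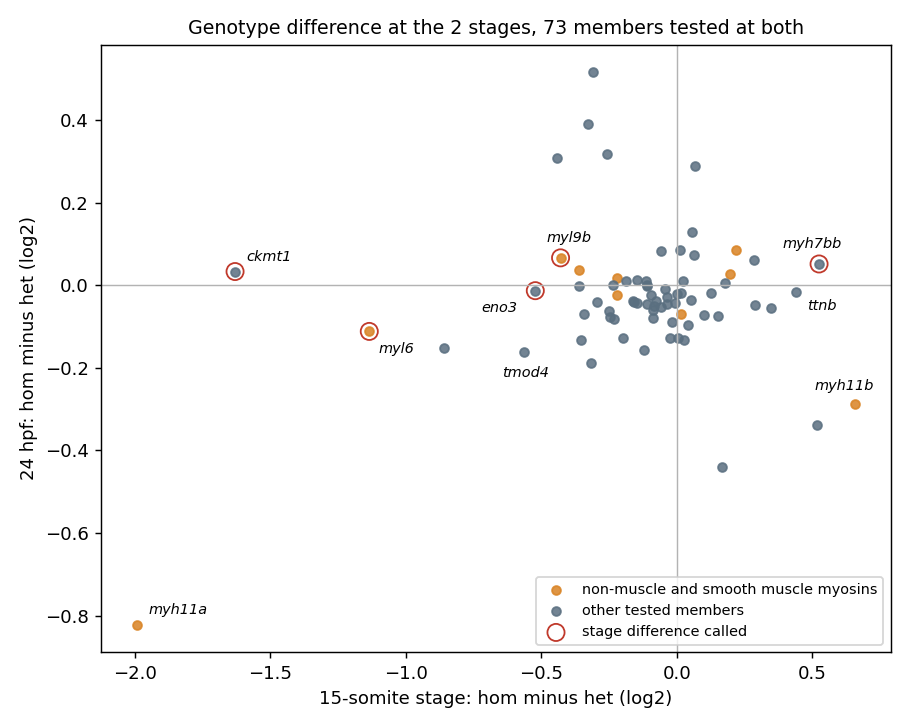
Each point is 1 of the 73 genes tested at both stages, with its log2 difference (homozygous minus heterozygous) at 15 somites on the horizontal axis and at 24 hpf on the vertical axis, which has a narrower scale. Rings mark the 5 genes whose stage difference passed; 4 of them lie left of 0 and myh7bb lies right of it, all between -0.11 and 0.07 at 24 hpf.

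Genes that act beside the sarcomere were followed in separate lists. Of 19 tested genes of excitation-contraction coupling, which turn a nerve signal into calcium release, 0 passed in limma at 15 somites, with a median of -0.00354 and the calcium release channel genes ryr1a and ryr1b both at 0.30. Genes of myosin folding and sarcomere assembly (12 tested, median 0.03) and of the dystrophin complex (11 tested, median 0.05) likewise held 0 calls. Of 10 genes of the nerve-muscle synapse 8 lay above 0 and 0 passed (median 0.21), with the adaptor gene dok7 at 0.56 (SE 0.23). In the muscle energy list of 9 tested genes, gapdh, an enzyme gene of glycolysis expressed in most tissues, fell by 0.997 on the log2 scale (SE 0.11, adjusted p = 0.0115) and no other passed. Sarcomere genes whose symbols fall outside the rule held 0 calls among 11, with the slow heavy chain gene smyhc1 and the skeletal muscle actin gene actc1b both at -0.03. The widest values in that list were -0.75 for cmlc1, -0.59 for csrp3, -0.55 for smyhc3, 0.43 for vmhcl and -0.41 for vmhc, with SE between 0.17 and 0.37. At 24 hpf none of these lists held a call, and their medians ran from -0.05 to 0.14, the highest being that of the last list, which includes the heart genes vmhc (0.44) and cmlc1 (0.33).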

How the data were processed

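RNA from whole zebrafish embryos was sequenced in 12 libraries, 3 per genotype and stage. Each deposited table holds log2 normalized values floored at 1, with the row median then subtracted, as the values show. DESeq and Zv9 are named per the submitters' processing notes; the aligner, the counter, the annotation and any version numbers are not given in these sources. Level classes (bounds 4, 16 and 256 normalized units) were recovered from the numerical step of each value, or from the floor where libraries tied there. Of rows known from the floor to lie below 16, the step alone would place 4.13% at 15 somites and 8.44% at 24 hpf at 16 or above. In simulated data the class was right for 91.5% of rows at 15 somites and 91.8% at 24 hpf. Rows with a median of at least 16 were tested with limma 3.58.1 in R 4.3.3, homozygous minus heterozygous within a stage, two-sided, with prior spread estimated per level class and Benjamini-Hochberg adjustment over all rows tested (threshold 0.05). The stage difference used rows tested at both. Members, lists and the rule for named genes (listed family members, called members and those with extreme differences) were chosen with earlier results of these data known. In simulated data 55.6% of 2-fold and 85.7% of 4-fold changes were recovered at 15 somites, and 70.6% and 87.6% at 24 hpf. Changes below 2-fold, where most member differences lie, and a shifted library were not simulated. These shares therefore do not give the recovery of such differences. Strand of counting is not stated, and near copies such as the fast myosin genes may share reads.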

Additional observations from a re-analysis of the deposited data

Results flagged for a closer look

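The genotype difference itself differed between stages for 5 genes, by the stage term of the limma model (24 hpf difference minus 15-somite difference, adjusted over 18107 rows, of which 3.33% passed). For myl6 this term was 1.02 (-0.11 at 24 hpf and -1.14 at 15 somites). For ckmt1 it was 1.66 (0.03 and -1.63), for eno3 0.51 (-0.01 and -0.52), and for myl9b 0.50 (0.07 and -0.43). For myh7bb it was -0.47 (0.05 and 0.52). Embryos were raised at 28 °C for 24 hpf and at 24 °C for 15 somites, so age and temperature cannot be told apart.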

How the results depend on the processing

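At 15 somites the count of 8 called members stayed between 6 and 12 with no filter on level, a stricter one, quantile normalization, median centring, all 12 libraries in 1 fit or symbols matched without regard to case. In these fits 2.56% to 9.53% of all rows were called, against 4.02% in the main fit. With 1 prior spread for all rows the count was 2, and 236 of all rows were called against 758. Leaving out 1 library gave 1 to 4 members and 63 to 416 rows, and the fit of all 12 libraries called 12 members and 1798 rows, 1151 lower and 647 higher. Quantile normalization called 743 rows lower and 283 higher. The member median ran from -0.146 to 0.0311 with 1 library left out, the highest without het 1. At 24 hpf 0 members were called under every alternative run, with 10 to 35 rows when 1 library was left out, and the median ran from -0.0519 to -0.0202. At 24 hpf, deviations of libraries with the same replicate number correlated at 0.0970, 0.0118 and -0.00650. Those with unlike numbers correlated at -0.0936 to 0.0840. With 3 libraries per group, whose deviations sum to 0, these values cannot show whether pools shared a clutch or day. A fit with replicate block called 0 members and 21 rows against 54, with a member median of -0.0389. No paired analysis was possible at 15 somites because 2 columns share a name. The stage difference was called for 5 members, 2 with 1 prior spread (258 rows against 603), and 2 to 7 with 1 library left out (178 to 691 rows). It was called for 7 of 50 tested members with the stricter filter, where 6.9% of all rows were called. With quantile normalization it was called for 6 members, where 4.31% of all rows were called, against 3.33% in the main fit. Of 173 differences of named genes, 72 turned sign under at least 1 alternative (25 at 15 somites, 22 at 24 hpf and 25 stage differences), and 0 of the 72 had passed in limma. With 1 library left out they ranged as follows. At 15 somites the lowest and highest values were acta1a -0.0983 to 0.0657, acta1b -0.0675 to 0.0902, cav3 -0.0934 to 0.0965, ckma -0.4163 to 0.0375, ckmb -0.2168 to 0.1299 and ldb3b -0.1228 to 0.0514. For mybpc2b they were -0.0492 to 0.0894, myhc4 -0.4577 to 0.3394, myhz1.1 -0.3306 to 0.0054, myhz1.2 -0.3822 to 0.0322, myhz1.3 -0.1186 to 0.18 and myhz2 -0.2543 to 0.0061. For myl1 they were -0.1172 to 0.0331, mylpfa -0.2685 to 0.0022, myom1a -0.0504 to 0.1062, myoz1a -0.4735 to 0.0108, myoz2b -0.1713 to 0.1034 and smyd1a -0.1824 to 0.0573. For smyd1b they were -0.0555 to 0.0849, tnnc1b -0.147 to 0.1796, tnni1b -0.4314 to 0.0192, tnnt3a -0.2834 to 0.2171, tpm1 -0.0223 to 0.1667 and tpm2 -0.1504 to 0.0151. For tpma they were -0.1594 to 0.036. At 24 hpf the lowest and highest values were acta1a -0.0518 to 0.016, actn2 -0.1618 to 0.089, actn3b -0.0355 to 0.0003, ckmt1 -0.1474 to 0.1955, eno3 -0.0508 to 0.0293 and mybpc2a -0.6574 to 0.2929. For mybpc3 they were -0.0526 to 0.0467, myh7bb -0.002 to 0.0821, myhz1.2 -0.0623 to 0.081, myhz1.3 -0.0462 to 0.0054, myhz2 -0.0079 to 0.0054 and myl10 -0.039 to 0.0539. For myoz1a they were -0.1437 to 0.1159, myoz2a -0.1035 to 0.027, myoz2b -0.0905 to 0.0794, neb -0.0354 to 0.0584, smyd1b -0.0517 to 0.0034 and tcap -0.2539 to 0.5914. For tpm2 they were -0.0918 to 0.0004, tpm3 -0.0254 to 0.0383, ttna -0.1168 to 0.0238 and ttnb -0.0812 to 0.0757. For the stage difference the lowest and highest values were acta1a -0.0935 to 0.0706, acta1b -0.1337 to 0.024, acta2 -0.1369 to 0.3151, ckma -0.1198 to 0.3339, ckmb -0.1682 to 0.1786 and myhc4 -0.2554 to 0.5418. For myhz1.1 they were -0.1333 to 0.2027, myhz1.2 -0.0225 to 0.3918, myhz1.3 -0.1982 to 0.1004, myhz2 -0.0055 to 0.2549, myl1 -0.0858 to 0.0645 and mylpfa -0.04 to 0.2307. For mylpfb they were -0.0586 to 0.384, myom1a -0.141 to 0.0156, myoz1a -0.0503 to 0.434, myoz2b -0.1124 to 0.1623, smyd1a -0.1184 to 0.1212 and smyd1b -0.1061 to 0.0343. For tmod1 they were -0.021 to 0.16, tnnc1b -0.2689 to 0.0577, tnnc2 -0.1407 to 0.0323, tnnt3a -0.2616 to 0.2389, tpm1 -0.0941 to 0.0949 and tpm2 -0.0644 to 0.1011. For tpma they were -0.1166 to 0.0788. With quantile normalization the sign turned at 15 somites for acta1b (0.0292), ldb3b (0.0236) and tnnc1b (0.0183), and at 24 hpf for mybpc2a (0.0405), mybpc3 (0.0009), myoz2b (0.0091) and neb (-0.0006). Stage differences that turned with it were acta1a (-0.0169), ckmb (-0.0001), myl1 (-0.0227), tpm1 (-0.0183) and tpma (-0.0214). The cause of these changes was not tested. Total depth is unknown, which limits what can be said of low genes.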

Other observations

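Level classes differed between the stages for part of the members, though the tables were normalized separately. The classes are estimated bounds rather than levels, and some are misplaced. At both stages 50 members were in the highest of the 4 classes, among them the skeletal actins, titins and nebulin. The fast heavy chain gene myha, the myozenin gene myoz3a, the telethonin gene tcap and the troponin I gene tnni2a.4 had a median below 16 normalized units at 15 somites and were in the highest class at 24 hpf. A further 12 members were in the class above 16 units at 15 somites and in the highest at 24 hpf, among them mybpc3 and tnnt3a, while myh11b and myhb lay in a lower class at 24 hpf. Another 19 rows carry symbols in capitals that begin with the same letters and are outside the rule. They include rows named TPMT, which share only the letters tpm and are not tropomyosin genes. Of the 19 rows, 10 were tested at 15 somites (differences -0.16 to 0.91) and 13 at 24 hpf (-0.35 to 0.51). In limma 0 passed at either stage (lowest adjusted p 0.298 and 0.851).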
